A study of Mus musculus with 24 samples.

Results

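The differences between Th1 and Th2 cells that were left after 6 hr of flavopiridol were read from 8 of the 24 arrays of the series. These were all arrays of flavopiridol-treated cells, 4 for either lineage, with each Th1 array set against the Th2 array of the same dose and state. The 4 pairs so formed were 1 µM unstimulated, 1 µM reactivated, 10 µM unstimulated and 10 µM reactivated, and values are given in that order throughout. The question the comparison addresses is which lineage differences remained when the elongation kinase was inhibited.

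The cells were T helper cells of female C57BL/6 mice differentiated in vitro, and no genetic change is named in the labels. On every array the sample carried Cy3 and was hybridised against naive CD4+CD62L+CD25-CD44lo T cells in Cy5, so each value is a log2 ratio of the sample to naive cells. The comparison arrays were 4 with DMSO, the vehicle, and 8 with the BET inhibitor JQ1 for 6 hr, at 50 or 500 nM. The Th1 DMSO arrays were of 6 hr, whereas the labels of the Th2 DMSO arrays give 6 hr in one place and 24 hr in another. The design text counts 1 biological replicate. Each condition therefore had 1 array, and the p-values below measure how far a lineage difference varied over doses and states, not between cultures.

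Th1 and Th2 cells are the helper lineages specified by the transcription factors T-bet (Tbx21) and Gata3, and they are known for secretion of interferon-γ and of interleukins 4, 5 and 13, respectively. P-TEFb, made of Cdk9 and a cyclin T, releases paused RNA polymerase II into elongation. Flavopiridol inhibits Cdk9 and other cyclin-dependent kinases, so that under the drug the RNA in a cell is increasingly what was made before the drug was added.

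The cell types lay on different slides of the array set. All 4 Th1 flavopiridol arrays were on 1 slide and all 4 Th2 flavopiridol arrays on another, so within these 8 arrays lineage and slide cannot be told apart. The share of probes with Cy3 well above background was 35.4% to 41.5% on the 8 arrays and at least 43.8% on the other 16. After loess normalization, which sets the bulk of genes near a ratio of 0, the spike-in RNA lay at -0.04 to 0.41 on the Th1 and at 0.77 to 0.98 on the Th2 flavopiridol arrays. Scaling to the spike-ins therefore moved the Th1 minus Th2 difference of all genes upward, from a median of -0.03 to 0.71 (log2), and differences below are relative to the bulk of genes unless the spike-in scaling is named. The reference channel gave a measure of slide effects on RNA of 1 description. In it 312 of 12367 genes (2.52%) differed between the slides of the Th1 and Th2 flavopiridol arrays (limma, Benjamini-Hochberg adjusted p below 0.05), 12 of them at least 2-fold higher and 1 at least 2-fold lower on the Th1 slide. The DMSO arrays of both lineages shared 1 slide. A further pair of comparisons had the slides the other way round, Th1 cells with 500 nM JQ1 for 24 hr against Th2 cells with 500 nM JQ1 for 6 hr, and is called the slide-exchanged comparison, although dose matches and time does not.

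The labelled lineages were checked against their markers. All 10 T cell markers were above background on all 8 arrays. Of the Th1 markers, Tbx21, Ifng, Cxcr3, Il12rb2 and Il18r1 were each higher in Th1 cells, and of the Th2 markers, Gata3 and Il4 were higher in Th2 cells, while the direction of Il5 and Il13 turned with the spike-in shift. Il1rl1, the interleukin-33 receptor and a Th2 marker, went against its label under flavopiridol. Its values are given with the Th2 genes.

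Promoter sequences are shown for 3 genes that stand for the patterns described below. They are Ifng, with the largest difference under the drug, Slpi, the gene with the largest Th2 excess by the smaller of its differences in the DMSO pairs, and Ramp3, whose difference turned round. Each is the 150 bases before the RefSeq start site in GRCm38.p6, 5′ to 3′ on the gene's strand, and capitals mark any match to a TATA box (TATAAA), a T-box core (GGTGTGA) or a GATA motif (AGATAA), each searched on both strands and counted without regard to the others.
Ifng, chr10:118440896-118441045, plus strand: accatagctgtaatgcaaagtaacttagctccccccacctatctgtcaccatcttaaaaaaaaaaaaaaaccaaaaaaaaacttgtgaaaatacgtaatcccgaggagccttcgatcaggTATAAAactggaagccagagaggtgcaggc
Slpi, chr2:164356508-164356657, minus strand: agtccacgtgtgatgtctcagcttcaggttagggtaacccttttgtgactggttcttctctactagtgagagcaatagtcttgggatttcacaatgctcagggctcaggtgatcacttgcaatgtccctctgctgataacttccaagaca
Ramp3, chr11:6658383-6658532, plus strand: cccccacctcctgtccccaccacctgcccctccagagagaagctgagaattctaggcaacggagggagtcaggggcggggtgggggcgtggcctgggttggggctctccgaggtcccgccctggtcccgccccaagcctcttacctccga
The TATA box of Ifng, which begins 30 bases before the start, was the only match in the 3 windows. Over all 32851 RefSeq promoters of this length 7.57% held the TATA box, 1.92% the T-box core and 5.65% the GATA motif. Among promoters of genes at least 2-fold higher in Th1 cells under flavopiridol the shares were 3.89%, 1.70% and 3.53% of 822, and among those at least 2-fold lower they were 2.96%, 1.14% and 3.19% of 439.

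Lineage differences under flavopiridol were many. Of 10606 genes tested, 3505 (33%) were higher and 3738 (35.2%) lower in Th1 than in Th2 cells (limma with the 4 pairs as a block, Benjamini-Hochberg adjusted p below 0.05, hereafter "called"). Called genes at least 2-fold apart numbered 820 higher in Th1 cells (7.73%) and 400 higher in Th2 cells (3.77%). On the 12 arrays without flavopiridol, 1838 of 12266 genes (15%) were called higher and 1789 (14.6%) lower in Th1 cells. Both counts followed the scaling in their direction. With the spike-in shift 8289 genes were higher and 373 lower under flavopiridol, with median centring 4952 and 1036, and with spike-in centring 6451 and 440. At 2-fold these scalings gave 3362 and 66, 1954 and 110, and 2656 and 62 genes, respectively, so the split of 820 and 400 belongs to the loess scale.

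The 2-fold differences were counted pair by pair over the 8859 genes above background on all 20 arrays of the DMSO, JQ1 6 hr and flavopiridol pairs. Under flavopiridol the excess lay with Th1 cells for 764, 1005, 569 and 689 genes, and with Th2 cells for 344, 514, 393 and 461. The DMSO pairs gave 293 (unstimulated) and 203 (reactivated) genes for Th1 and 265 and 143 for Th2 cells. Every flavopiridol pair thus exceeded every pair without the drug in both directions. The 4 JQ1 pairs, whose cell types also lay on different slides, ranged from 155 to 320 genes for Th1 and from 106 to 212 for Th2 cells.

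**Figure D1:**
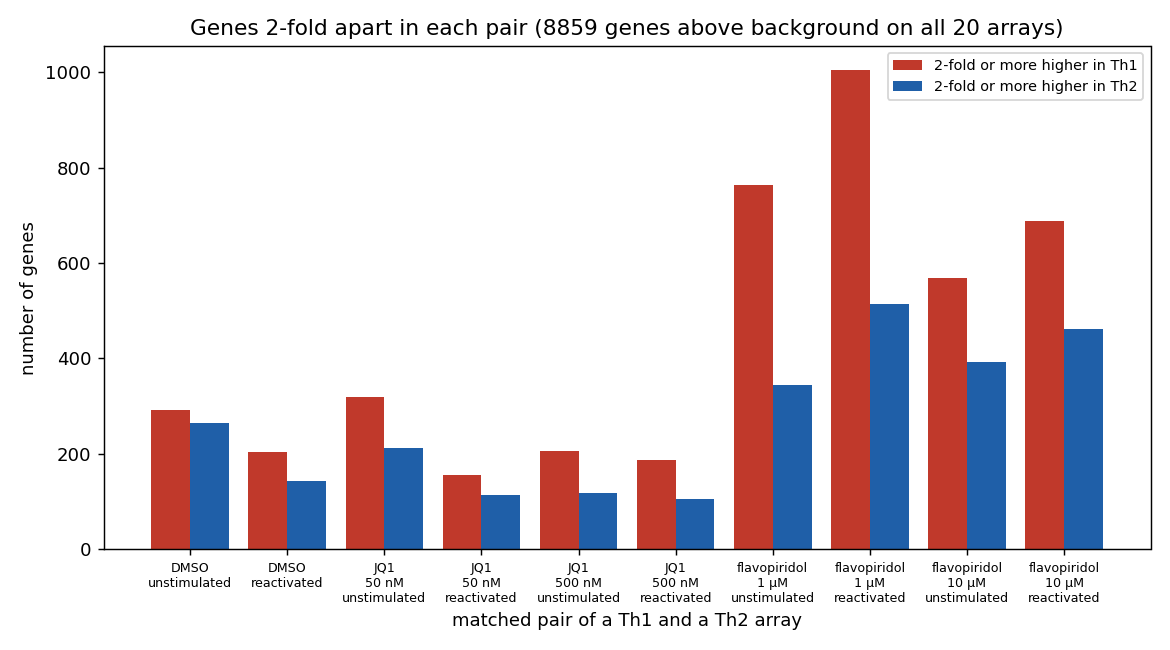
Number of genes at least 2-fold apart between a Th1 and a Th2 array, for each of 10 matched pairs, among 8859 genes above background on all 20 arrays. Red bars count genes higher in Th1 cells and blue bars genes higher in Th2 cells. The 4 flavopiridol pairs at the right hold 569 to 1005 Th1-high and 344 to 514 Th2-high genes, and the other 6 pairs hold fewer.

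The differences seen without drug were then followed into the drug. A set of 159 genes exceeded 2-fold toward Th1 cells in both DMSO pairs, with a median of 1.74 (log2). Under flavopiridol 84 of them (52.8%) remained at least 2-fold higher as the mean of 4 pairs, 55 kept the sign with a smaller difference, and 20 had the opposite sign, 5 of these by 2-fold or more. For the 95 genes at least 2-fold higher in Th2 cells in both DMSO pairs, 61 (64.2%) remained 2-fold apart, 30 were smaller and 4 had the opposite sign, none by 2-fold. The median went from 1.74 to 1.12 for the Th1 set and from -1.58 to -1.52 for the Th2 set. The same sets read with JQ1 at 6 hr kept 122 (76.7%) and 70 (73.7%) genes at 2-fold, and in the slide-exchanged comparison 75 (47.2%) and 53 (55.8%). Since the sets were chosen for large values on the DMSO arrays, the DMSO medians are a description. Dose made little difference to these counts, with 82 and 85 Th1 genes and 60 and 62 Th2 genes at 1 and 10 µM.

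The genes apart under the drug were then read in the DMSO pairs. Of the 820 genes called and at least 2-fold higher in Th1 cells, 503 (61.3%) were higher in both DMSO pairs, against 29.6% of all genes tested. In both DMSO pairs 84 (10.2%) exceeded 2-fold, against 1.33% of all genes, and 394 (48%) differed by less than 0.5 (log2), against 66%. Of the 399 genes called and 2-fold higher in Th2 cells with values on all arrays, 252 (63.2%) had the same sign and 26.8% differed by less than 0.5 in both DMSO pairs, against 32.6% and 66% of all genes. With the slides exchanged, 460 (56.1%) of the Th1-high and 202 (50.6%) of the Th2-high genes had the same sign in both pairs, against 37.9% and 33.1% of all genes. The opposite sign in both was seen for 159 (19.4%) and 91 (22.8%), against 33.1% and 37.9% of all genes.

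**Figure D2:**
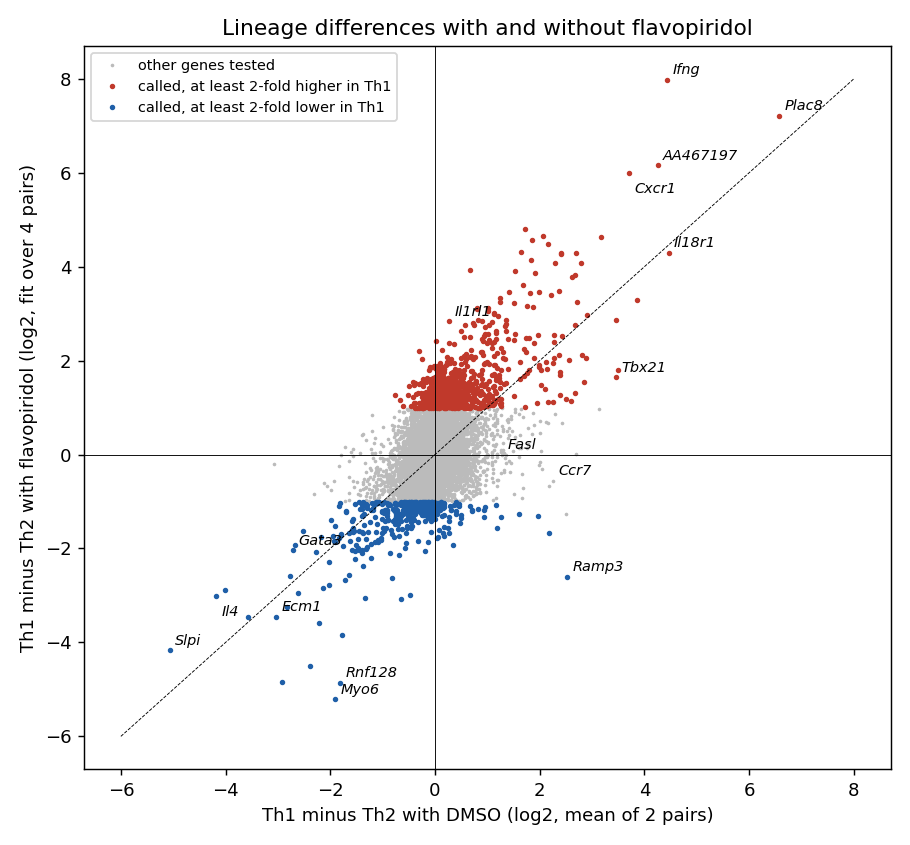
Th1 minus Th2 difference of each tested gene with DMSO (x axis, log2, mean of 2 pairs) and with flavopiridol (y axis, log2, fit over 4 pairs). Red points are genes called and at least 2-fold higher, blue points genes called and at least 2-fold lower in Th1 cells, and the dashed line marks equal differences. Plac8, Il18r1 and Ecm1 lie near the line, Ifng, Cxcr1, Rnf128 and Myo6 lie farther from 0 under the drug, and Ramp3 lies at 2.53 on the x axis and at -2.60 on the y axis.

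Interferon-γ RNA gave the largest difference. Ifng lay at 7.60, 7.91, 8.15 and 7.94 on the Th1 arrays and at -0.11, 0.09, -0.12 and -0.17 on the Th2 arrays, where it was not well above background on any. The groups were far apart, and in Cy3 alone Th1 cells were at least 903-fold higher. Ifng passed the filter on signal through Th1 cells alone, as did every gene given below with a bound through the lineage where it is high, so adjusted p-values beside bounds are given as the fit's values and not as support. This bound sets the Th1 mean against the lowest signal well above background on the Th2 arrays, after Aquantile normalization, and is open to dye bias because dyes were not swapped. The ratio gives a smaller fold, 252, and the Cy5 signal of Ifng was itself 1.97 higher on the Th1 slide. With DMSO the unstimulated cells lay at 7.15 (Th1) and 0.65 (Th2), and reactivated Th2 cells reached 6.20 against 8.59 in Th1 cells. The fitted change against DMSO, with Th2 cells at the floor under the drug, was 3.54 (SE 0.90, adjusted p 0.0214).

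The lineage factors kept their sides. Tbx21, which encodes T-bet, lay at 1.01, 2.30, 1.73 and 2.23 in Th1 and at 0.06, 0.86, -0.20 and -0.06 in Th2 cells under flavopiridol. All Th1 values were above all Th2 values, but by 1.65 (SE 0.20, limma adjusted p 0.000245). The Th2 arrays were mostly at background (1 of 4 above), so this p-value too is not given as support. With DMSO, Th1 cells stood at 5.41 and 6.11, and the differences were 5.44 unstimulated and 1.47 reactivated. The change of the difference, -1.80 (SE 0.91, adjusted p 0.169), was not called. Gata3 lay at -3.30, -2.79, -3.09 and -2.59 in Th1 and at -1.13, -0.88, -0.72 and -0.89 in Th2 cells. Its level was lower than with DMSO in both lineages (-0.52 and -0.33 in Th1, 1.95 and 2.64 in Th2 cells), whereas the difference of -2.04 (SE 0.12, adjusted p 9.59e-06) compared with -2.47 and -2.97, a change that was not called (0.68, adjusted p 0.0549).

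Most Th1 genes of a fixed list were higher in Th1 cells under the drug. Of 40 listed genes 39 were on the array and 33 passed the filter on signal, of which 27 were called higher and 2 lower, beside 33% and 35.2% of all genes, with a median of 1.88 against -0.03 for all genes tested. Without flavopiridol 31 of 37 tested were higher and none lower, beside 15% and 14.6%, with a median of 1.39. Beside Ifng, the largest were Il18r1 and Il18rap, the chains of the interleukin-18 receptor, Furin, a proprotein convertase, Ccl3, a chemokine, and Cxcr3, a Th1 chemokine receptor. Others called higher were Klrd1, Nkg7, Ccl5, Ly6c1, Ctsw, Cxcr6, Lta, Irf8, Ccl4, Il12rb1, Xcl1, Tbx21, Gimap7, Il12rb2, Slamf7, Serpinb9, Bhlhe40, Havcr2, Runx3 and Cd226. Those lower were Irf1, an interferon regulatory factor (-0.56, and 0.18 with the spike-in shift), and Gzmb, granzyme B (-0.80), whose sign depended on the channel read and is described with the granule genes. Tnf, tumour necrosis factor, went from 1.91 and 0.61 with DMSO to -0.39 (SE 0.20, not called; 0.34 with the spike-in shift), and its change of -1.66 was called. The change against DMSO was called upward for 8 of 36 list members and downward for 5, beside 15.7% and 13.5% of all genes. In the spike-in scaling 30 were higher and none lower, beside 78.2% and 3.52%.

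Il18r1 lay close to its DMSO difference. Its values were 2.19, 2.04, 1.83 and 2.01 in Th1 and -2.07, -2.51, -2.26 and -2.30 in Th2 cells, a difference of 4.30 (SE 0.09, limma adjusted p 9.87e-08) beside 4.70 and 4.23 with DMSO. The change with the drug was -0.16 (SE 0.19) and was not called (adjusted p 0.564). A second, dimmer probe gave 2.73. Furin lay at 2.49, 2.71, 3.11 and 3.16 in Th1 and at -1.59, -1.48, -1.0 and -1.02 in Th2 cells, whereas reactivated cells with DMSO differed only by 0.57.

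Cxcr3 lay at 2.70, 3.50, 2.56 and 4.05 in Th1 cells and at -0.20, -0.36, -0.24 and -0.34 in Th2 cells, where it was not above background, so that Th1 cells were at least 10.5-fold higher (limma adjusted p 2.61e-05). Ccl3 differed by 3.91 (SE 0.13), but was above background on only 1 of 4 Th2 arrays, so the size is uncertain. Il18rap, not above background in Th2 cells, was at least 7.85-fold higher in Th1 cells. Il12rb2, a signalling chain of the interleukin-12 receptor, had a smaller difference of 0.96 (SE 0.09, limma adjusted p 8.26e-05). Its level was higher in reactivated than in unstimulated cells of both lineages (3.17 and 3.51 against 1.64 and 1.69 in Th1, 2.45 and 2.32 against 0.72 and 0.67 in Th2 cells). Fasl, the death ligand, lay at -1.79, -1.75, -1.49 and -1.49 in Th1 cells under flavopiridol, and in Th2 cells it was not above background, so that its difference could not be measured. With DMSO the unstimulated lineages had differed by 3.03 and the reactivated by -0.48.

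**Figure D3:**
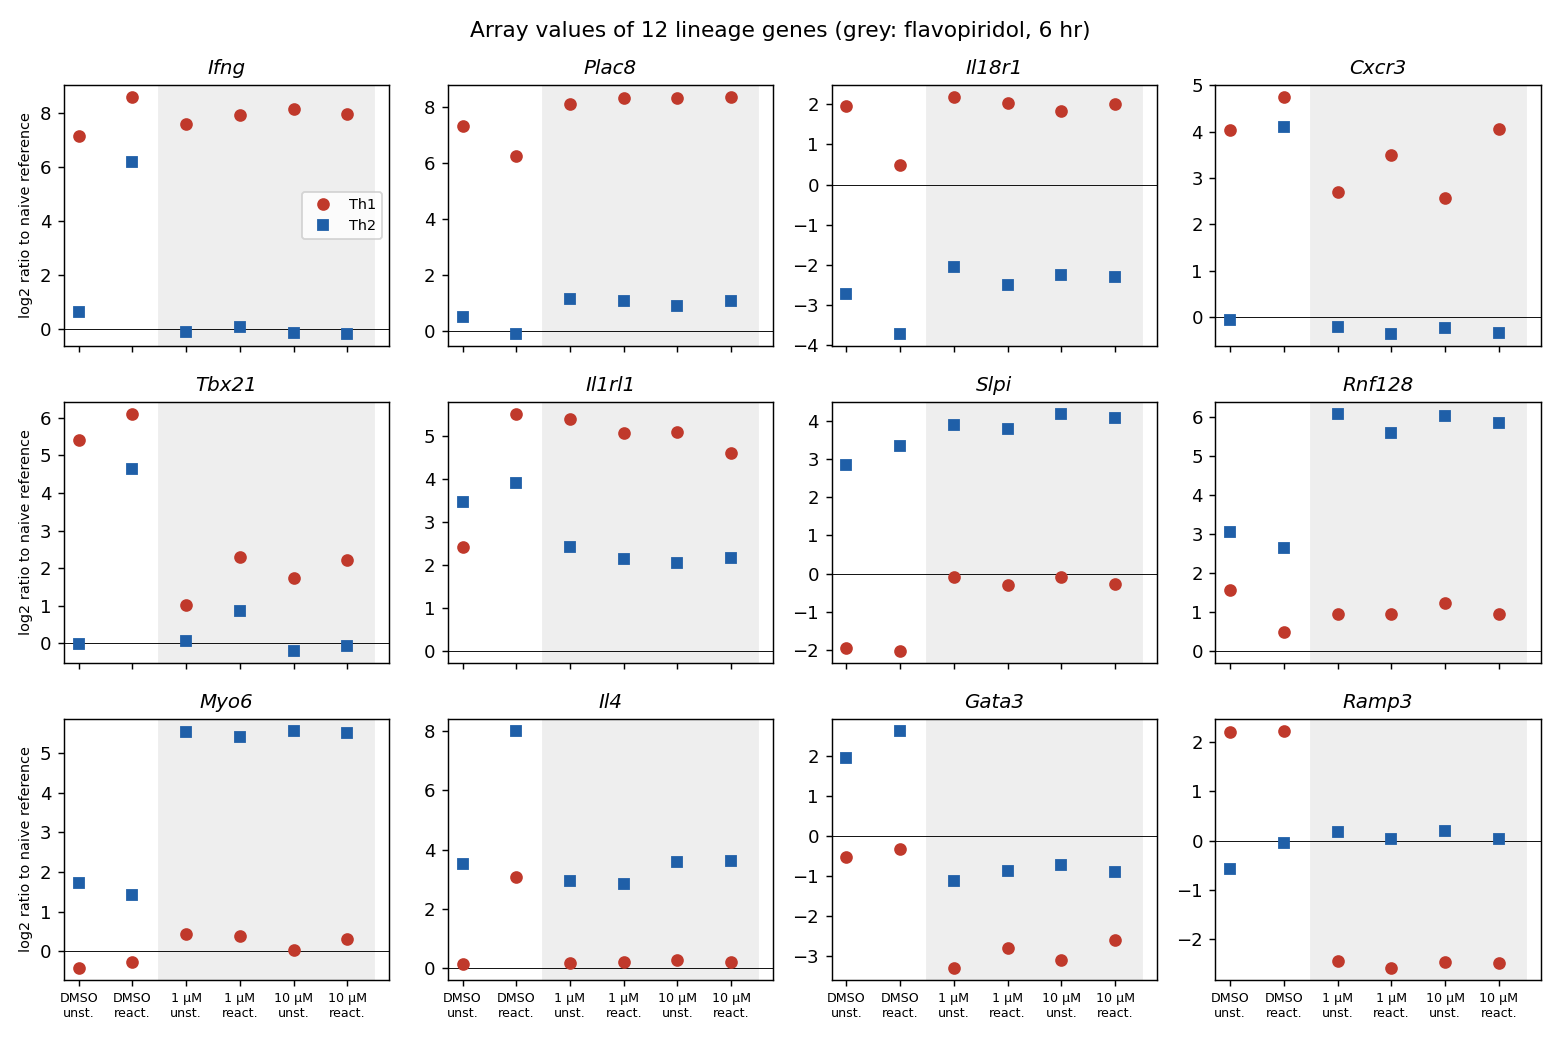
Log2 ratio to the naive reference of 12 genes on single arrays of Th1 (red circles) and Th2 cells (blue squares), with DMSO at the left and with flavopiridol on the grey field. Ifng, Plac8 and Il18r1 keep Th1 cells above Th2 cells on all 4 drug pairs, Slpi, Rnf128, Myo6, Il4 and Gata3 keep Th2 cells above, and Ramp3 changes side between DMSO and flavopiridol.

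The Th2 gene list was mixed in direction. All 40 listed genes were on the array and 30 passed the filter. Of these 8 were called higher and 16 lower in Th1 cells, beside 33% and 35.2% of all genes, with a median of -0.40. Without flavopiridol 6 of 32 were higher and 13 lower (median -0.16), and in the spike-in scaling 15 were higher and 7 lower under the drug, beside 78.2% and 3.52% of all genes, with a median of 0.33, so the direction of the list as a whole turned with the scaling. The 6 genes with the largest Th2 excess were Rnf128 (also called GRAIL), an E3 ubiquitin ligase known from T cell anergy, Penk, proenkephalin, Ecm1, an extracellular matrix protein, Il4, Gata3 and Nfil3, a basic leucine zipper factor. Each of these 6 stayed lower in Th1 cells with the spike-in shift. The others called lower were Il4ra, Rbpj, Gfi1, Dusp6, Pparg, Il2ra, Epas1, Il5, Il13 and Cd200r1. A second probe of Rbpj gave 0.35 and one of Epas1 gave -4.74, so those genes are uncertain.

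Il4 lay at 2.93, 2.83, 3.57 and 3.62 in Th2 cells and at 0.18, 0.19, 0.28 and 0.21 in Th1 cells, where it was not above background. Th2 cells were at least 6.02-fold higher (limma adjusted p 4e-06), and reactivated Th2 cells with DMSO reached 8.02. Reactivation under the drug thus left Il4 far below that level. Il5 and Il13 lay low in Th2 cells under the drug, at 0.56 to 0.92 and 0.60 to 0.81, and were not above background in Th1 cells. Th2 cells were at least 1.29-fold and 1.26-fold higher, and the fitted differences of -0.48 and -0.45 had the opposite sign with the spike-in shift (0.26 and 0.29).

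Rnf128 lay at 6.08, 5.59, 6.02 and 5.85 in Th2 and at 0.96, 0.95, 1.23 and 0.94 in Th1 cells. The difference of -4.86 (SE 0.09, limma adjusted p 7.86e-08) exceeded -1.49 and -2.16 with DMSO, where Th2 cells stood at 3.06 and 2.64, and its change of -3.04 (SE 0.22) was called (adjusted p 0.000881). Penk differed by -3.84 (SE 0.07) and Ecm1 by -3.45 (SE 0.07), the latter beside -3.07 and -2.99 with DMSO. Nfil3 was almost equal with DMSO (0.21 and 0.09) and lower in Th1 cells by 1.68 under the drug (-1.68, SE 0.09), at 1.32 to 1.63 in Th1 and 2.83 to 3.48 in Th2 cells.

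The list members higher in Th1 cells were Plac8, Il1rl1, Ltb4r1, Maf, Cysltr1, Batf, Crem and Il10. Plac8, a small cysteine-rich protein, was higher in Th1 cells with DMSO too (6.81 and 6.32). Il1rl1 lay at 5.38, 5.07, 5.08 and 4.59 in Th1 and at 2.42, 2.14, 2.05 and 2.15 in Th2 cells, a difference of 2.84 (SE 0.11, limma adjusted p 1.72e-06). With DMSO it had been lower in unstimulated Th1 cells (-1.05) and higher in reactivated ones (1.60). Another probe of Il1rl1 gave 0.84 under the drug. Maf, a factor that promotes Il4 transcription, was higher in Th1 cells by 1.76 (SE 0.09), at 1.92 to 2.37 against 0.30 to 0.43.

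**Figure D4:**
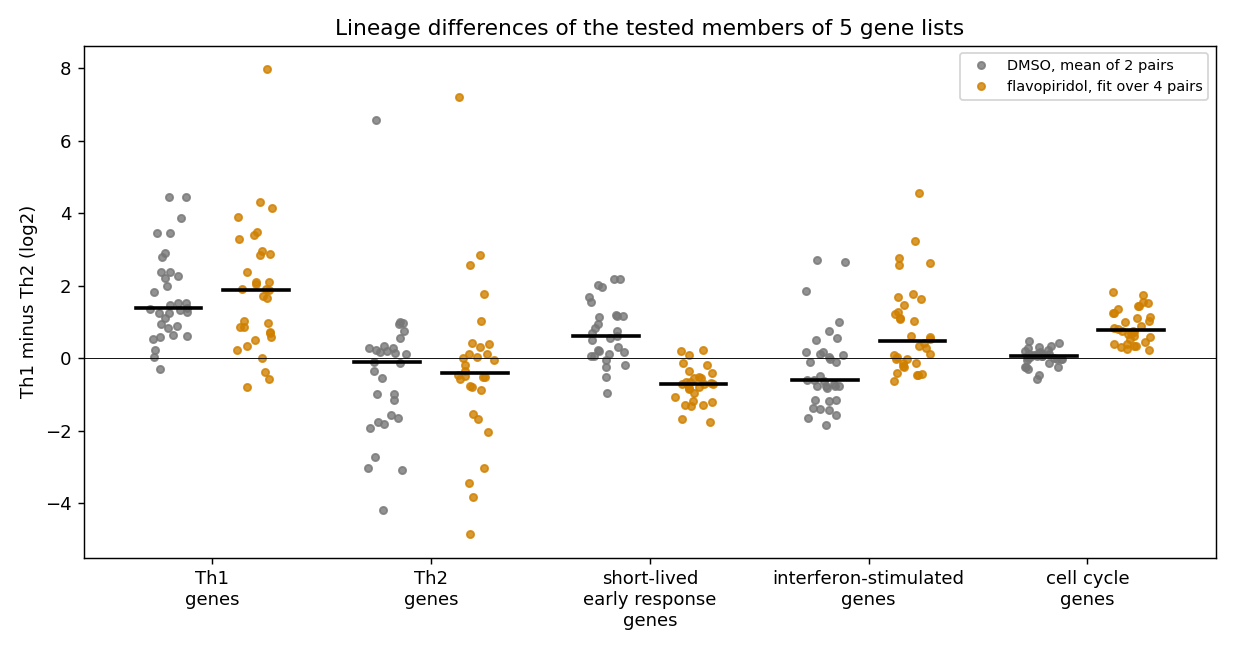
Th1 minus Th2 difference (log2) of the tested members of 5 gene lists, grey with DMSO (mean of 2 pairs) and orange with flavopiridol (fit over 4 pairs), with black bars at the medians. Th1 genes lie mostly above 0 in both. Early response genes pass from mostly above to mostly below 0 on this scale, and cell cycle genes from near 0 to above it.

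Ranked over all genes, the 12 largest Th1 excesses with Th1 cells above background on all 4 arrays were, after Ifng, those of Plac8, AA467197, Cxcr1, Esm1, Lilr4b, Sytl3, Gbp2, Dapk2, Rufy4, Il18r1 and Gstt1. Plac8 lay at 8.08, 8.32, 8.31 and 8.35 in Th1 and at 1.14, 1.09, 0.89 and 1.09 in Th2 cells (difference 7.21, SE 0.09, limma adjusted p 2.62e-08). AA467197 lay at 7.61 to 7.77 and 1.26 to 1.72, a difference of 6.16 (SE 0.08). Cy5 was also higher on the Th1 slide for both, by 0.97 and 0.67. Cxcr1, a receptor for chemokines that attract neutrophils, lay at 5.47, 5.67, 5.58 and 5.64 in Th1 cells and was not above background in Th2 cells, a difference of at least 69.3-fold from Cy3 alone, where the ratio gave 64.1-fold.

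Of the other 8, 6 had fitted differences between 4.30 and 4.80, and Dapk2 and Rufy4 only bounds. Esm1, a secreted proteoglycan, differed by 4.80 (SE 0.09), but was above background on only 2 of 4 Th2 arrays, so its size and rank are uncertain. Lilr4b, an inhibitory immunoglobulin-like receptor, differed by 4.65 and Sytl3, a Rab effector of vesicle traffic, by 4.64, with its other probes as low as 1.71. Of the rest, Gbp2, an interferon-induced GTPase, lay at 2.31 to 2.52 in Th1 and at -2.19 to -2.03 in Th2 cells. The kinase Dapk2 and Rufy4 were not well above background in Th2 cells, with bounds from Cy3 alone of 14.5-fold and 27.9-fold, so their rank is not settled. The ratio of Rufy4 gave 20-fold, and its Cy5 signal was 0.49 higher on the Th1 slide. Gstt1, a glutathione transferase, differed by 4.30 (SE 0.07), with 3 of 4 Th2 arrays above background. All 12 were higher in Th1 cells in both DMSO pairs, Gbp2 by only 0.10 and Esm1 by only 0.40 in reactivated cells. All 12 were also higher in Th1 cells in both slide-exchanged pairs, from 0.04 (Dapk2, reactivated) to 5.43 (Ifng, unstimulated).

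The 12 largest Th2 excesses were those of Myo6, Rnf128, Nts, Cpe, Slpi, Penk, Sln, Efna5, Ecm1, Jchain, Adamtsl4 and Mzb1. Among them Nts encodes neurotensin and Cpe carboxypeptidase E. Myo6, an unconventional myosin, lay at 5.53, 5.40, 5.56 and 5.51 in Th2 and at 0.44, 0.38, 0.03 and 0.31 in Th1 cells (difference -5.21, SE 0.10, limma adjusted p 7.86e-08). It was above background on only 2 of 4 Th1 arrays, so the size of its difference is uncertain. With DMSO Th2 cells stood at 1.72 and 1.41, and the slide-exchanged differences were -0.40 and -0.63. Slpi, a secreted protease inhibitor, lay at 3.89, 3.79, 4.18 and 4.07 in Th2 and at -0.09, -0.30, -0.09 and -0.26 in Th1 cells. Its difference of -4.17 (SE 0.08) was smaller in size than -4.78 and -5.36 with DMSO, a called change (0.90, SE 0.20, limma adjusted p 0.0127), and the slide-exchanged differences were -5.07 and -5.26.

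Nts was not above background in Th1 cells and at least 18-fold higher in Th2 cells, at 4.64 to 5.12. Cpe lay at 0.90 to 1.06 in Th1 and at 5.37 to 5.63 in Th2 cells, with the differences of its probes from -5.78 to -1.64. Sln (sarcolipin) and Efna5 (an ephrin) were also not above background in Th1 cells and at least 8.96-fold and 8.05-fold higher in Th2 cells. Efna5 was at 4.09 and 4.12 in Th2 cells at 1 µM and at 2.86 and 2.85 at 10 µM. The ranks of Nts, Sln and Efna5, which rest on Th1 values at background, are not settled. Nor are those of Myo6 and Jchain, each above background on 2 of 4 Th1 arrays. Adamtsl4 differed by -3.07 (SE 0.08), beside -0.76 and -0.52 with DMSO and 0.06 and 0.29 with the slides exchanged.

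Jchain, the joining chain of polymeric antibodies, and Mzb1, an endoplasmic reticulum protein of antibody-producing cells, differed by -3.25 (SE 0.10) and -3.05 (SE 0.11). B cell markers moved with them. Of the 6 markers 5 were tested and 4 were called lower in Th1 cells, beside 35.2% of all genes. The spike-in shift gave 1 higher and 3 lower, beside 78.2% and 3.52%. Among the 4 called lower on the loess scale were Ms4a1 (at least 3.56-fold, with no Th1 array above background) and Cd22 (-0.70, and 0.03 with the shift). Cd79b (-1.52) was another, above background on only 1 of 4 Th1 arrays, so its size is uncertain. Cd79a was not called (-0.28, and 0.46 with the shift). The summed Cy3 signal of the 6 was 702 to 1020 on the Th1 and 1430 to 2730 on the Th2 arrays (normalized intensity units), and Pax5, a defining marker, was above background on 1 Th2 array and on no Th1 array. Their part in the Th2 excess was not tested. Without flavopiridol the same number, 4 of 5, was lower in Th1 cells (median -0.70), beside 14.6% of all genes.

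Cytotoxic granule genes were mixed in direction. Of 21 listed granule genes 17 were tested, 8 higher and 6 lower in Th1 cells, with a median of 0.23 (0.85 without flavopiridol, 10 of 17 higher and 1 lower). All genes gave 33% and 35.2%, and with the spike-in shift 14 were higher and none lower (median 0.97). Nkg7 (2.87, SE 0.10), Ctsw, cathepsin W (2.11, SE 0.07), and Gzma, granzyme A (2.02, SE 0.12) led, with 2.73, 2.48 and 2.74 in unstimulated cells with DMSO. Granzyme B and perforin, by contrast, had lower ratios in Th1 cells under the drug. Gzmb lay at 3.78, 4.15, 4.23 and 4.17 in Th1 and at 4.74, 4.92, 4.99 and 4.88 in Th2 cells (limma adjusted p 7.9e-05), and Prf1 differed by -0.59. Their changes against DMSO, -1.44 and -1.69, were called. The Cy5 signal of Gzmb, however, was 2.84 (log2) higher on the Th1 slide, and its mean Cy3 signal alone was higher in Th1 (15.19) than in Th2 cells (13.16, log2 intensity), so the direction for Gzmb turned with the channel read. The Prf1 difference turned with the spike-in shift (0.15), while its mean Cy3 signals, 10.22 and 10.88, kept the order.

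Markers of CD8 and natural killer cells were read beside these. Cd8a lay at 2.44, 2.28, 2.11 and 1.92 in Th1 cells and was not above background in Th2 cells (at least 3.72-fold), and Cd8b1 differed by 0.60 (SE 0.07). Their summed signal was 546 to 648 on Th1 and 274 to 298 on Th2 arrays. Of the natural killer markers Klrb1c and Fcgr3 were above background on no array, Ncr1 on 1, and Klra8, on no Th2 array above background, was at least 1.9-fold higher in Th1 cells. Among killer cell lectin-like receptors, of which 3 of 15 on the array were tested, Klrd1 (at least 9.70-fold) and Klrb1f (at least 1.62-fold) were called higher in Th1 cells, and neither was above background in Th2 cells. The part of such cells in the difference was not tested.

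The markers of other cells were read in the same way. Those of macrophages summed to 4630 to 7210 on Th1 and 7350 to 13700 on Th2 arrays, with Itgam (-0.76), Csf1r (-0.60) and Adgre1 (at least 1.33-fold, with no Th1 array above background) lower in Th1 cells and the defining Lyz2 and Cd14 above background on no array. Dendritic cell markers summed to 10500 to 15700 and 17300 to 26700, and Siglech (-1.02) was the only 1 of 5 tested. Of the regulatory T cell markers Ikzf4 (-0.91) and Lrrc32 (-0.48) were lower in Th1 cells and Foxp3 was not called, with sums of 1820 to 4100 and 3130 to 6850. Th17 markers summed to at most 563 on Th1 and 533 on Th2 arrays, with Il17a above background on no array. Mast cell markers (370 to 404 against 452 to 485) were represented by Tpsb2 (-0.46) and red cell markers (275 to 373 against 317 to 371) by Hba-a1 (-0.42). Among the T cell markers, 204000 to 242000 against 183000 to 208000, Cd28 (1.13), Lck (1.11) and Cd5 (0.79) were the largest differences, all toward Th1. With the spike-in shift Csf1r (0.14), Adgre1 (0.26), Lrrc32 (0.25), Tpsb2 (0.27) and Hba-a1 (0.32) had the opposite sign and Itgam was at -0.02, while Siglech (-0.28) and Ikzf4 (-0.17) stayed below 0.

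Receptors of chemokines were mostly higher in Th1 cells. Of 10 tested 6 were higher and 1 lower (median 1.36), beside 33% and 35.2% of all genes. The spike-in shift gave 9 and none, beside 78.2% and 3.52%, with Cxcr1 and Cxcr3 the largest. Ccr7, the receptor that guides T cells to lymph nodes, was the 1 lower. It lay at -7.06 to -6.68 in Th1 and -6.67 to -5.75 in Th2 cells, a difference of -0.56 (SE 0.14) beside 1.83 and 2.69 with DMSO, and its sign turned with the spike-in shift (0.18). Ccr4 and Ccr8, receptors associated with Th2 cells and lower in Th1 cells without the drug, showed differences of 0.12 and 0.04 that were not called.

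Of 27 cytokine receptor chains tested 10 were higher and 12 lower in Th1 cells (median -0.12), beside 33% and 35.2% of all genes, and 18 and 3 with the spike-in shift (median 0.61). The largest were Il18r1, Il18rap and Il1rl1. Both chains of the interferon-γ receptor were called, in opposite directions. Ifngr1 was higher in Th1 cells by 0.68 (SE 0.10), beside 2.43 and 1.87 with DMSO. Ifngr2 was not above background in Th1 cells and at least 3.98-fold higher in Th2 cells. Among 17 genes of integrins and adhesion 12 were higher and 4 lower (median 0.65), beside 33% and 35.2% of all genes, and without flavopiridol 7 and 2 of 20 (median 0.09). The largest were Itgb3, integrin β3 (-2.94, SE 0.10, at -3.02 to -2.74 in Th1 and -0.08 to 0.13 in Th2 cells), Alcam (1.77, SE 0.09) and Cd6 (1.23, SE 0.07), the last pair being a ligand and its receptor.

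Interferon-stimulated genes stood higher in Th1 cells under the drug. Of 34 tested 20 were higher and 6 lower (median 0.48), against 4 and 9 of 39 without flavopiridol (median -0.20). All genes gave 33% and 35.2% under the drug and 15% and 14.6% without it. In DMSO their median was 0.28 in unstimulated and -1.29 in reactivated cells. Gbp2, Gbp5 and Gbp3, guanylate-binding proteins of the interferon-γ response, led with 4.56, 3.25 and 2.76. Gbp5 lay at 2.60, 2.34, 2.41 and 2.70 in Th1 and at -0.68, -0.87, -0.50 and -0.90 in Th2 cells. The 6 lower genes, Oasl1, Ifit3, Ddx58, Irf9, Oas2 and Oasl2, lay between -0.63 and -0.25 and were all above 0 with the spike-in shift. Oasl2 was above background on all 4 Th1 arrays and on no Th2 array, so its difference could not be measured. With the shift 33 genes of the list were higher and none lower, beside 78.2% and 3.52% of all genes.

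Cell cycle genes separated the lineages under the drug. Of 32 tested 31 were higher in Th1 cells and none lower, 13 of them by 2-fold or more, with a median of 0.78. All genes gave 33% higher and 35.2% lower, and 7.73% higher by 2-fold or more. Without flavopiridol 3 of 33 were higher and 2 lower (median 0.06). The interaction with the drug was called for 21 of 33, all upward, beside 15.7% of all genes. The list's median was 1.52 with the spike-in shift, 1.18 with median centring and 0.92 with Cy3 alone. All genes had medians of 0.71, 0.25 and -0.02, respectively. The spike-in shift raised all genes, so it could not have turned this list. Bub1, a spindle checkpoint kinase, lay at 4.28, 4.38, 4.31 and 4.81 in Th1 and at 2.20, 1.98, 3.16 and 3.07 in Th2 cells, whereas with DMSO the lineages differed by -0.01 unstimulated and 0.24 reactivated. Pcna, the sliding clamp of DNA synthesis, differed by 1.75 (SE 0.18) and Cdk1, the mitotic kinase, by 1.55 (SE 0.20). Th2 cells at 1 µM had the lowest values of Bub1 and Cdk1. In the slide-exchanged comparison the list's median was -0.19.

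Short-lived early response genes ran the other way on the loess scale. Of 29 tested none was higher and 22 were lower in Th1 cells (median -0.71), beside 33% and 35.2% of all genes, whereas without flavopiridol 14 of 36 were higher and none lower (median 0.62), beside 15% and 14.6%. With the spike-in shift 7 were higher and 5 lower, beside 78.2% and 3.52% of all genes. The median was then 0.03, beside 0.71 for all genes, where the loess scale gave -0.71 beside -0.03. The direction of the list thus depended on the scaling, while its median lay below that of all genes on both scales. The largest were Mcl1, a survival factor of the Bcl2 family (-1.76, SE 0.11), Nr4a1, an orphan nuclear receptor (-1.67, SE 0.33), and Nfkbia, the NF-κB inhibitor (-1.33, SE 0.21), and these 3 remained below 0 with the shift (-1.02, -0.93 and -0.59). Nfkbia lay at -5.14, -1.83, -4.94 and -3.54 in Th1 and at -4.23, 0.05, -4.24 and -1.72 in Th2 cells. Its levels were higher in reactivated than in unstimulated cells of both lineages under the drug, and most so at 1 µM.

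Genes of the elongation machinery also differed. Of 19 tested genes of P-TEFb, the super elongation complex, Mediator and BET proteins, 1 was higher and 15 lower in Th1 cells (median -0.55), against 1 and 5 of 23 without flavopiridol. All genes gave 33% and 35.2%, and 15% and 14.6% without the drug. With the spike-in shift 7 were higher and 1 lower, beside 78.2% and 3.52% of all genes, with a median of 0.19 (0.71 for all genes). Mepce (-1.11, SE 0.08) and Larp7 (0.94, SE 0.07), both components of the 7SK complex that holds P-TEFb inactive, moved in opposite directions and Ell, an elongation factor, differed by -0.87 (SE 0.08). The kinase itself, Cdk9, differed by -0.55 (SE 0.07), and by 0.19 with the spike-in shift.

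Cytosolic ribosomal protein genes gave 28 lower and none higher of 39 (median -0.34), beside 35.2% and 33% of all genes, and 28 higher and none lower with the spike-in shift (median 0.40), beside 78.2% and 3.52%. Rps20 (-0.83), Rps19 and Rpsa (each -0.66) were the largest, and the other probes of Rpsa reached 0.03. Cy5 was higher on the Th1 slide for Rps20 and Rpsa, by 0.39 and 0.35. The list's median was -0.15 with Cy3 alone and 0.15 with median centring, beside -0.02 and 0.25 for all genes. The direction of this list therefore followed the scaling. Of 24 genes of cholesterol and fatty acid synthesis 12 were higher and 2 lower (median 0.26), beside 33% and 35.2% of all genes, and 22 and none with the spike-in shift (median 1.00), led by Cyp51, Idi1 and Sc5d of sterol synthesis (1.11, 0.82 and 0.74).

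Genes near T-bet super-enhancers, by the study's own list, showed no common direction under the drug. Of 472 listed genes 367 were on the array and 289 passed the filter. Of these 114 were higher and 101 lower in Th1 cells, beside 33% and 35.2% of all genes. The median was 0.00 against -0.03 for all genes. Without flavopiridol 121 of 323 were higher and 34 lower (median 0.24), beside 15% and 14.6% of all genes. Under the drug 41 were called and at least 2-fold higher and 20 at least 2-fold lower, beside 7.73% and 3.77% of all genes, led by Ifng, Il18r1 and Furin. With the spike-in shift 216 were higher and 17 lower, beside 78.2% and 3.52% of all genes, with a median of 0.74 against 0.71. Of the study's human Th1 genes, which were chosen on other samples, 28 of 57 tested mouse counterparts were higher and 6 lower (median 0.44), and of its human Th2 genes 27 of 59 were higher and 24 lower (median 0.06), beside 33% and 35.2% of all genes. These counts became 50 and 3 for the Th1 list (median 1.18) and 42 and 5 for the Th2 list (median 0.80) with the spike-in shift. All genes gave 78.2% and 3.52% on that scale. Beside the Th1 genes already named the largest of the human lists were Nek6 (2.04, SE 0.12) and Galnt3 (at least 3.02-fold, not above background in Th2 cells), both from the Th2 list and higher in Th1 cells, and Gata3.

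The change of the lineage difference between DMSO and flavopiridol was tested directly. The interaction was called for 1895 of 12063 genes (15.7%) upward, that is toward Th1, and for 1632 (13.5%) downward. Under the spike-in shift 9466 were upward and 80 downward, and under median centring 4133 and 290, so the split is a property of the loess scale. The largest upward changes were those of Ifng, Emp1, Esm1, Rtp4 and Gbp2, of which Rtp4 was not measurable under the drug. Emp1, an epithelial membrane protein, lay at 6.63 to 6.69 in Th1 and 2.41 to 3.17 in Th2 cells, and its difference grew from 1.11 and 0.22 to 3.94 (change 3.28, SE 0.29, limma adjusted p 0.00112). Rtp4, an interferon-induced chaperone, differed by -2.16 and -4.49 with DMSO and was above background on none of the 8 flavopiridol arrays, so its change has no size.

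The largest downward changes were those of Ramp3, Nr4a1, Cxcl10, Myo6 and Tnfaip3. Ramp3, an accessory protein of the calcitonin receptor family, lay at -2.44, -2.58, -2.46 and -2.49 in Th1 and at 0.17, 0.04, 0.20 and 0.04 in Th2 cells. With DMSO Th1 cells stood at 2.21 and 2.23 and Th2 cells at -0.57 and -0.04. Th1 cells thus went from above to below Th2 cells (change -5.13, SE 0.17, limma adjusted p 1.15e-05), and Th2 values moved little. With 500 nM JQ1 at 6 hr the differences were 0.17 and 1.02, and in the slide-exchanged comparison -1.87 and -0.96. Tnfaip3, an inhibitor of NF-κB signalling, changed by -3.26 (SE 0.32, adjusted p 0.00146), from 2.53 and 1.38 to -1.30.

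Nr4a1 and Cxcl10 changed by -3.85 and -3.79. Cxcl10, an interferon-induced chemokine, was at 0.36, 4.70, 0.13 and 1.06 in Th1 and at 0.05, 7.55, -0.04 and 3.80 in Th2 cells, so that it was high only after reactivation and its fitted difference of -1.27 (SE 0.57) was not called (limma adjusted p 0.0796). Ranked by the smaller of the differences in the DMSO pairs, the largest without the drug were Plac8, AA467197, Il18r1, Klrd1 and Cxcr1 toward Th1 and Slpi, Il4, Ecm1, Bmp7 and Jchain toward Th2 cells. All 10 kept their side under flavopiridol and were called. Klrd1, Cxcr1 and Il4 passed the filter through the lineage where they are high alone, so their calls are not given as support. Bmp7, a growth factor of the TGF-β family, lay at 3.62 to 3.80 in Th2 and 0.96 to 1.28 in Th1 cells (difference -2.58, SE 0.09) beside -2.84 and -2.67 with DMSO. Klrd1, a lectin-like receptor not above background in Th2 cells, was at least 9.70-fold higher in Th1 cells.

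Neither reactivation nor dose changed the lineage difference of any gene past the threshold. The interaction with state was called for 0 of 10606 genes and that with dose for 0, with 533 and 1170 genes at an unadjusted p below 0.05 (limma), and both counts were also 0 from Cy3 alone. These interactions rest on the same 8 arrays with 2 residual degrees of freedom, and such a count does not show that the differences were alike.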

How the data were processed

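Th1 and Th2 samples were hybridised in Cy3 against naive T cells in Cy5 on 24 Agilent arrays. The authors deposited scanner files of Agilent Feature Extraction 10.7.1.1, whose signals are intensities and whose own ratio is log10, per the file headers, and log2 ratios in a table of the series. The grid was built on mm9, per the file headers. The intensity medians were corrected here with normexp (offset 50) and normalized within arrays by loess (span 0.3) in limma 3.58.1 (R 4.3.3), giving log2 ratios of Cy3 to Cy5. Control spots were left out, and a gene was read from its brightest probe, named through RefSeq accessions (26425 of 55681 probes had 1 symbol). Single channels were taken after Aquantile normalization.

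Genes with Cy3 well above background on at least 4 of the 8 flavopiridol arrays were tested with limma (lmFit, eBayes), the pair of dose and state as a block and 3 residual degrees of freedom, with Benjamini-Hochberg adjustment. The comparison without flavopiridol used 12 arrays (above background on at least 6), and the change of the difference 12 arrays (at least 4). The number of arrays limits the precision. On simulated data the test found 24, 48, 50 and 49 of 50 genes changed by 0.5, 1, 2 and 4 (log2) and 5 of 10388 unchanged genes among 10588. For the change against DMSO it found 1, 23, 46 and 49 of 50, and 5 of 11838 unchanged genes among 12038.

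The members and lists were chosen with earlier results of these data known. Genes named were 10 lineage genes, the 12 largest differences in each direction, all called Th1 and Th2 list members, the 5 largest changes against DMSO and the 5 largest DMSO differences in each direction, and the 3 largest called members of every other list, except for a few that are not reported here. Vps37b and those given to explain a count or a pathway (for example Gzmb, Fasl, Ccr7 and Cdk9) were chosen after their values were seen. Alternatives were other scalings, filters, probes and channels, other blocks, and arrays left out. A filter on the DMSO arrays was added after seeing the data.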

Additional observations from a re-analysis of the deposited data

Results flagged for a closer look

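Among 85 named genes whose 4 pair differences under flavopiridol were examined, 2 had a pair far from the others by Dixon's 95% criterion on the gap over the range, which chance gives in about 1 of 20 genes. The Il1rl1 difference was 2.44 in the 10 µM reactivated pair and 2.93 to 3.03 in the others. The Lrrc32 difference was -0.61 in the 1 µM reactivated pair and -0.45 to -0.43 in the others.

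For 2 genes the lineage difference was at least 2-fold in both DMSO pairs and at least 2-fold the other way in all 4 flavopiridol pairs, and its change was called (limma interaction). These were Ramp3, by -5.13, and Vps37b, an endosomal sorting protein, by -2.86 (SE 0.26, adjusted p 0.0012). Vps37b lay at -4.02 to -3.96 in Th1 and at -2.95 to -2.48 in Th2 cells under the drug, after differences of 2.07 and 1.13 with DMSO. The Ramp3 and Vps37b changes set the flavopiridol slides against the DMSO slide, and the part of the slides was not tested.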

How the results depend on the processing

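For the 39 named differences under flavopiridol, 746 of 760 values kept their direction and side of the threshold, 6 lost and 6 gained the call, and Il5 (0.26) and Il13 (0.29) reversed with the spike-in shift. The count of called genes, 7243, ranged from 5426 to 8662 (6255 to 6882 with a pair left out). Its share higher in Th1 cells was 48.4%, and became 82.7% (median centring), 93.6% (spike-in centring) or 95.7% (shift). The count without flavopiridol was 1170 with the shift (456 higher, 714 lower), 194 from DMSO arrays alone (121 and 73), 2542 to 3404 with a pair left out, and split 863 and 1807 with median centring. The count of changed differences, 3527, was 9546 with the shift, 1023 with 10 µM alone, and 2302 (without the 10 µM reactivated pair) to 3550 with a pair left out. The state interaction gave 9 genes with the shift and 0 to 2 with an array left out, 2 without the Th2 10 µM reactivated array. The dose interaction gave 3 with the shift and 0 with any array left out. The reference channel gave 166 genes with median centring. Of 497 values for 40 changes against DMSO, 404 were kept, 65 lost and 20 gained the call, and 8 reversed: Il18r1 (0.83 with median centring, 0.79 with the shift), Ecm1 (0.53, shift), Jchain (0.83 with median centring, 0.92 in the deposited series table), Klrd1 (0.39, shift, and 0.02 with 24 hr Th1 DMSO arrays) and Il13 (-0.01 with the latter). The causes were not tested. Without the pair block the count was 7124 with dose and state as terms and 5426 with cell type alone, where Il12rb2 and Nr4a1 lost the call. Genes not well above background have only bounds.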
